A study of Mus musculus with 2 samples.

Results

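Laminins are cross-shaped proteins of the basement membrane, each built from an alpha, a beta and a gamma chain, and they form the sheet on which an epithelium or a blood vessel rests. Integrins are receptors on the cell surface, each a pair of an alpha and a beta subunit, that bind laminins, collagens, fibronectin and other matrix proteins outside the cell and couple them to the actin or keratin cytoskeleton inside. In the developing urinary tract the ureteric epithelium is separated by a basement membrane from the ureteric mesenchyme, which also contains vessels, and the receptor formed by the integrin chains alpha8 and beta1 with its ligand nephronectin is known for its role in outgrowth of the ureteric bud.

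The integrin and laminin genes were taken by gene name from the annotation of an Agilent mouse array, using names of the forms Itga, Itgb, Lama, Lamb and Lamc followed by the chain's number or letter. The genes described here are 36 of 29875 genes, with 50 of 39429 probes, of which 26 encode integrin chains and 10 laminin chains. Ureters of E12.5 wildtype embryos of the outbred NMRI strain, of undetermined sex, had been kept as explants for 18 h without serum. One set received BIO at 10 µM, a GSK3 inhibitor that activates canonical WNT signaling, and the control set received only the solvent DMSO, at 2 parts in 1000. Per the study's methods the RNA came from pools of whole ureters, and there were 2 arrays, each with control RNA in one color and BIO RNA in the other, with the dyes exchanged between replicate 1 and replicate 2.

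The values below are of 2 kinds. A signal is the intensity that the scanner software had background-subtracted and dye-normalized, given for control and then for BIO. A log2 ratio is BIO over control after the background correction and normalization described under the processing, so that -1 stands for a fall to 50% of the control level. Each gene is represented by its brightest probe, and its ratio was tested against 0 with limma over all 28824 probes that lay above background. A gene is said to have risen or fallen at an adjusted p below 0.05. Signals of different probes cannot be compared as levels of different genes. The tissue was checked with markers, and all 8 ureteric epithelial and all 8 ureteric mesenchymal marker genes were well above background in control. The treatment was checked with the WNT feedback genes Axin2 and Sp5, which rose, with log2 ratios of 2.15 ± 0.12 and 2.80 ± 0.12 (SE, n = 2 arrays). Their limma adjusted p-values were 3.41e-05 and 2.65e-05. Every SE given here is the moderated SE of limma, which also draws on the variance of all tested probes. It is not the spread of the 2 arrays alone and is smaller than that where the arrays differ much.

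Among integrin and laminin genes, falls with BIO outnumbered rises. Of the 36 genes, 34 were above background and tested, and 19 of these were called, 2 as risen and 17 as fallen. Over all 21574 genes tested, 23.9% were called, 9.13% as risen and 14.8% as fallen. The median log2 ratio of the 34 genes was -0.38, and -0.36 and -0.33 on the single arrays, while the median of all tested genes was -0.01. The integrin genes had 1 rise and 14 falls among 24 tested and the laminin genes 1 rise and 3 falls among 10 tested. The largest falls among the 34 were those of the laminin alpha4 chain gene Lama4, the integrin alpha4 gene Itga4 and the integrin alpha8 gene Itga8. The only rises were those of the laminin alpha1 chain gene Lama1 and the integrin alpha10 gene Itga10.

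In 19 of the 34 genes both control signals lay above both BIO signals, against 26.4% of all tested genes, and in 6 genes both BIO signals lay above both control signals, against 29.9%. All 17 falling genes are among those 19. The study states a stricter rule for its other arrays, of at least 2-fold on both arrays and a signal of at least 100. Applied here to floored and median-centered processed signals, it gave 2 of the 36 genes as lower and 0 as higher. Over all 29875 genes 2.23% met this rule, 1.47% as lower and 0.753% as higher. These 2 were Lama4 and Itga4. The count of called genes depended on the normalization. With median centering in place of loess, 12 of 34 genes were called, at 12.8% of all genes, and on the deposited score table, a per-probe value of the authors rounded to 1 decimal, 4 of 34 were called, which is 11.8% and below the 15.1% of all genes on that table. Median centering ended the calls of Itga1, Itga2, Itga10, Itgax, Itgb1, Itgb5 and Lamb1, and the 3 calls shared with the score table were those of Itga1, Itgb1 and Itgb5. The remaining gene called on the score table was Lama2, which was not called in the main fit. Each of the 4 genes called on the score table had the same rounded score on both arrays. The median over the 34 genes stayed negative in both, at -0.41 and -0.31.

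**Figure D1:**
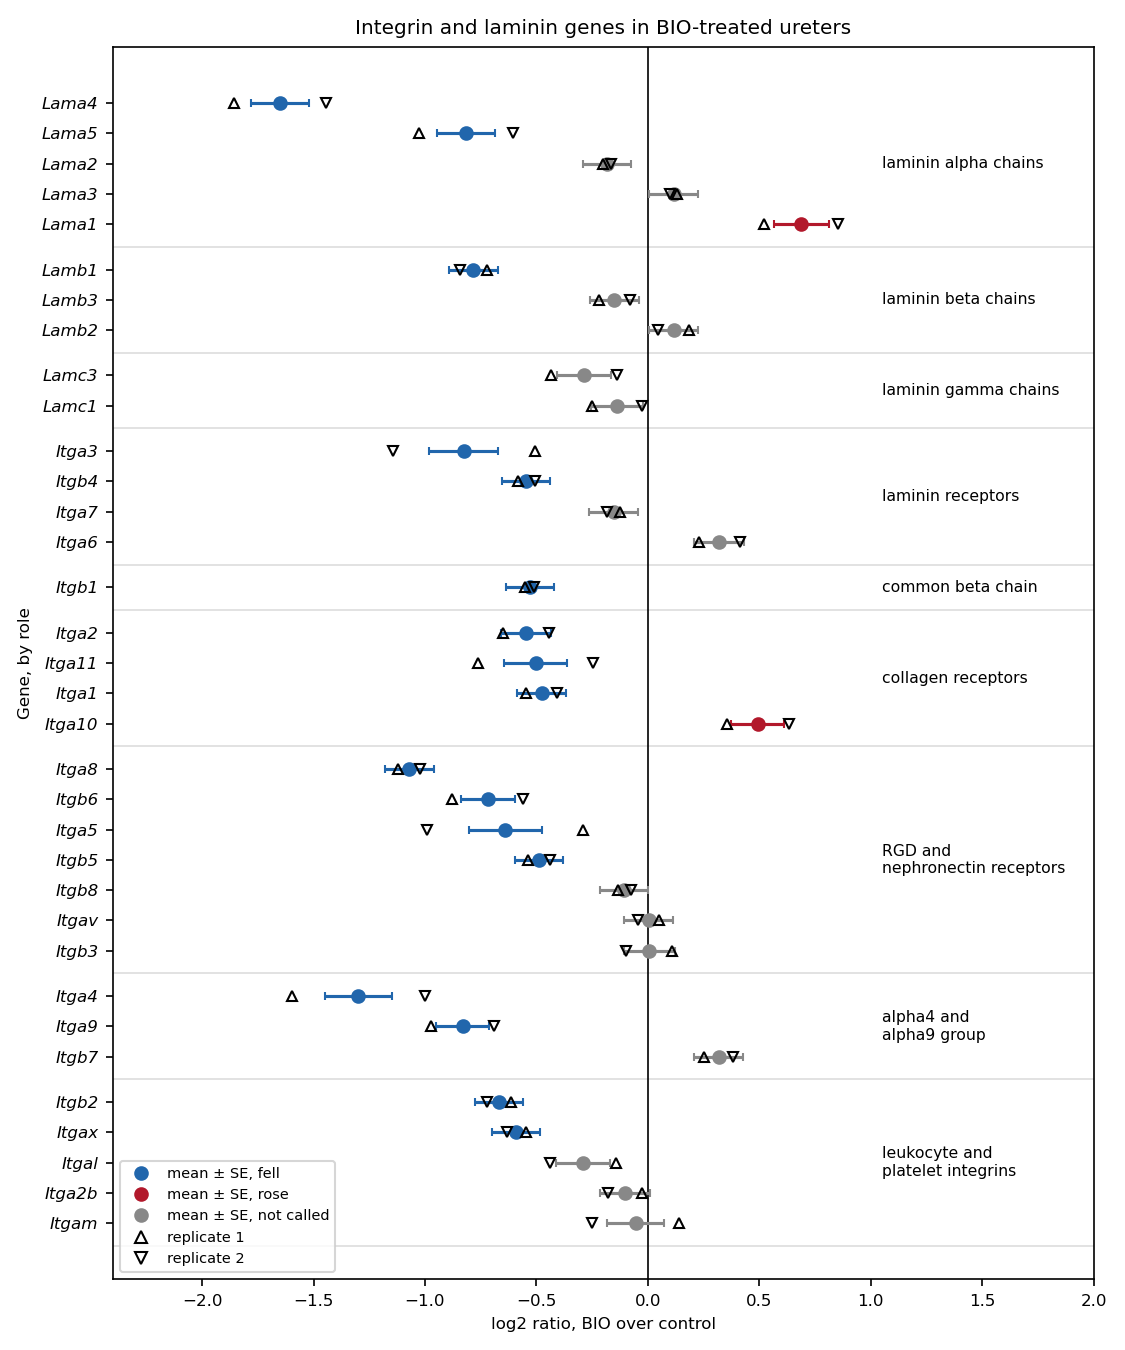
Log2 ratio of BIO over control (horizontal axis) for the 34 tested integrin and laminin genes, grouped by role. Filled circles with bars are the mean ± SE of limma (blue fell, red rose, gray not called), and open triangles are the 2 arrays. Of the 19 called genes, 17 lie left of 0 on both arrays, and Lama1 and Itga10 lie right of 0 on both.

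Every value rests on a probe of 60 bases, and the first 30 bases of those for the 3 largest falls and for the larger of the 2 rises among the 34 genes are shown here, read 5′ to 3′ in the sense of the transcript.
Lama4: ttggatgtagactcagaagtgaaccatgta
Itga4: gtgtgtggaatgcattataaagatctaaca
Itga8: catacattggtattctcgaggagtctatct
Lama1: atgttgaactaaagccacacggacaacaga
These probes lie, in the mouse build mm9, at chr10:38825794-38825853 on the plus strand for Lama4, chr2:79173193-79173252 on the plus strand for Itga4, chr2:12028462-12028521 on the minus strand for Itga8 and chr17:68171924-68171983 on the plus strand for Lama1. Each of these 4 probes matches 1 uninterrupted genomic stretch, so none crosses an intron.

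Among the laminin alpha chains, which carry the main binding sites for receptors, 1 rose, 2 fell and 2 were not called. Lama4 encodes the alpha chain of laminin-411, a laminin of vessel walls and of mesenchymal tissue. Its signal went from 3398 to 948 in replicate 1 and from 4316 to 1586 in replicate 2. Both BIO signals were less than 50% of the control signal on the same array, and the log2 ratio was -1.65 ± 0.13 (SE), a fall of 3.14-fold with a limma adjusted p of 0.000135. Lama5 encodes the alpha chain of laminin-511, the widespread laminin of mature epithelial basement membranes. Its signal went from 12372 to 6462 in replicate 1 and from 12886 to 8381 in replicate 2. The control signals of the 2 arrays were nearly equal and the BIO signals differed more, and the log2 ratio was -0.82 ± 0.13, -1.03 and -0.61 on the single arrays, at an adjusted p of 0.00325.

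Lama1 encodes the alpha chain of laminin-111, a laminin of early embryonic epithelia. It went the other way, from a signal of 3371 in control to 4888 with BIO in replicate 1 and from 3472 to 6289.6 in replicate 2. Both BIO signals were above both control signals, and the log2 ratio was 0.69 ± 0.12, a rise of 1.61-fold with an adjusted p of 0.00528. Lama2, the alpha chain gene of laminin-211 of muscle and peripheral nerve, had log2 ratios of -0.20 and -0.17 on the arrays and was not called, and its second probe gave -0.07 and -0.24. Lama2 was called only on the score table, at -0.14 and a limma adjusted p of 0.0478. Lama3, the alpha chain gene of laminin-332 of stratified epithelia, had 0.13 and 0.10 and was not called either.

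The beta and gamma chains are shared between laminins. Lamb1, the beta chain gene of laminin-111, laminin-411 and laminin-511, went from a signal of 30359 to 18494 in replicate 1 and from 33732 to 19417 in replicate 2. The groups were well apart, and the log2 ratio was -0.78 ± 0.11 with an adjusted p of 0.00176. Lamb2, the beta chain gene of laminin-521, had log2 ratios of 0.19 and 0.05, and Lamb3, the beta chain gene of laminin-332, had -0.22 and -0.08. Neither was called.

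Lamc1, the gamma chain gene of most laminins, had log2 ratios of -0.25 and -0.02, and Lamc3 had -0.43 and -0.14. Neither was called, at adjusted p-values of 0.438 and 0.124.

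The chain genes of a single laminin had unequal log2 ratios. For laminin-111 the log2 ratios of the 3 chain genes spanned 1.24 in replicate 1 and 1.70 in replicate 2, with Lama1 risen, Lamb1 fallen and Lamc1 not called. For laminin-411 they spanned 1.60 and 1.42, with Lama4 and Lamb1 fallen. They were 0.52 and 0.82 for laminin-211, in which Lamb1 was the lowest on both arrays, and 0.77 and 0.82 for laminin-511, in which Lama5 was the lowest in replicate 1 and Lamb1 in replicate 2. For laminin-521 they were 1.21 and 0.65. None of these spans was tested.

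**Figure D2:**
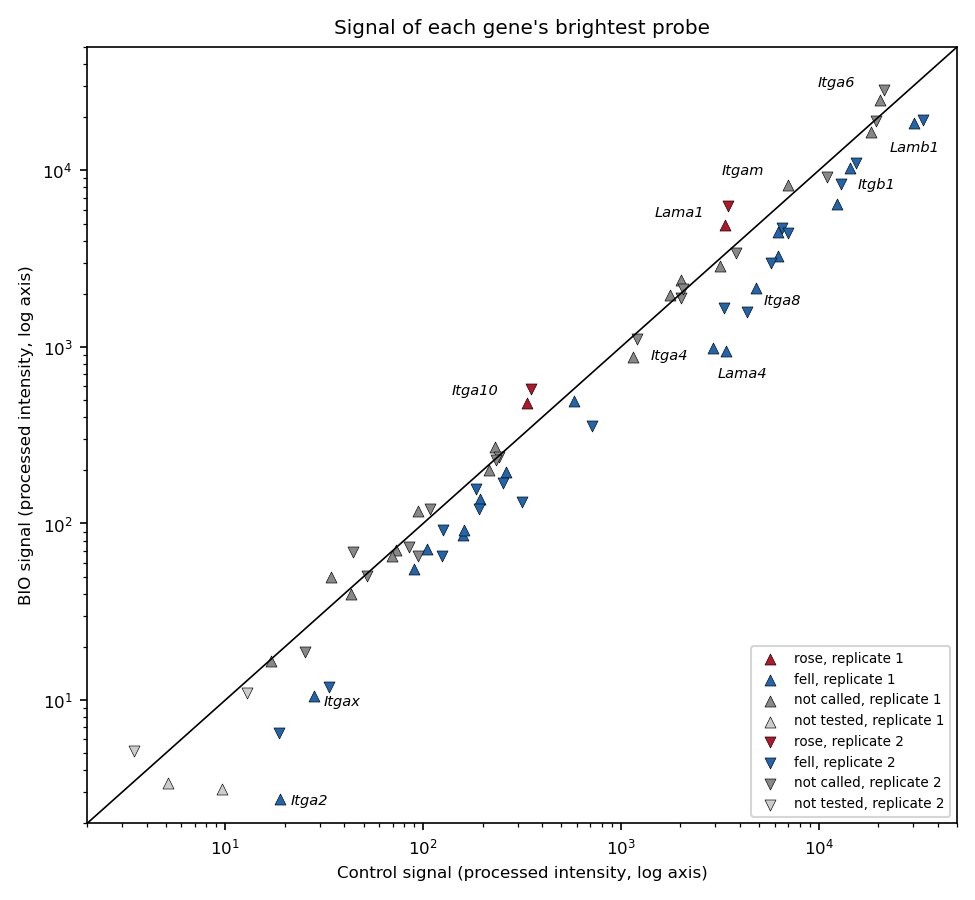
Processed signal of each gene's brightest probe in control (horizontal axis) and with BIO (vertical axis) on log axes for the 36 genes, with 1 triangle per array and the line of equal signal. Lama4, Itga4 and Itga8 lie furthest below the line among probes with control signals above 1000, while Lama1 and Itga10 lie above it.

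The integrins that bind laminin pair the alpha3, alpha6 or alpha7 chain with beta1, or alpha6 with beta4. Itgb1 encodes the common beta chain that also serves most collagen and fibronectin receptors. Its signal fell from 14329.5 to 10261 in replicate 1 and from 15395 to 11078 in replicate 2. Both BIO signals were below both control signals, and the log2 ratio was -0.53 ± 0.11 with an adjusted p of 0.00974. A second probe of Itgb1 also fell, with a log2 ratio of -0.39.

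Itga3, whose product binds laminin-332 and laminin-511, had signals of 263 and 196 in replicate 1 and 315 and 132 in replicate 2. It fell on both arrays, but the log2 ratios of -0.51 and -1.14 differed by 0.64 on the log2 scale, and the mean was -0.83 ± 0.16 with an adjusted p of 0.00686. Itgb4 encodes the partner of alpha6 in hemidesmosomes, the junctions that anchor epithelia through keratin. Its signal was 195 and 138 in replicate 1 and 252 and 169 in replicate 2, and it fell, with a log2 ratio of -0.55 ± 0.11 and an adjusted p of 0.00881. Itga7, the laminin receptor gene of muscle, had log2 ratios of -0.13 and -0.18 and was not called.

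For Itga6 the direction depended on the probe. The following 2 probes, of which again the first 30 bases are shown, lie on the plus strand of chromosome 2, the brighter at chr2:71690633-71690692 and the other at chr2:71694756-71694815 (mm9).
Itga6 brighter probe: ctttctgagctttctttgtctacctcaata
Itga6 second probe: gagaatgagaacctgggaggtcttgttgtt
The brighter probe, annotated with an Ensembl transcript, had signals of 20318 and 25122 in replicate 1 and 21418 and 28642 in replicate 2, with both BIO signals above both control signals and a log2 ratio of 0.32 ± 0.11. The second, annotated with the RefSeq transcript, had signals of 1288 and 1292 in replicate 1 and 1496 and 980.0 in replicate 2, with a log2 ratio of -0.33 ± 0.15. Neither ratio passed, at adjusted p-values of 0.0757 and 0.147, so no direction is given for Itga6.

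To set laminin alpha chains beside their receptors, each chain was paired with the receptor genes known for it, and the log2 ratio of the receptor was subtracted from that of the chain on each array. Over 21 such pairs the chain was lower than the receptor on both arrays in 9, higher on both in 9 and of opposite signs in 3. The pairs share chains and receptors and are not independent, so they are a description without a test. Lama4 was lower than all 4 of its receptor genes on both arrays. It had the lowest log2 ratio of all 34 tested integrin and laminin genes on each array. It would therefore lie below any of them, receptor or not. Against Itgb1 the difference was -1.31 and -0.94, and against Itgav, whose log2 ratios were near 0, it was -1.91 and -1.40.

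Lama1 was higher than all 4 of its receptor genes on both arrays, but it also had the highest log2 ratio of all 34 tested genes on each. The differences were 1.07 and 1.36 against Itgb1, and 0.92 and 1.16 against Dag1, the gene of the non-integrin laminin receptor dystroglycan. Against the brighter probe of Itga6 they were 0.30 and 0.44. The difference of Lama5 from Itgb1 was -0.48 and -0.10 and from Itgb4 -0.44 and -0.10. Against Itga3 it was -0.52 and 0.54 and against Bcam, the gene of a laminin receptor that is no integrin, -0.79 and 0.15, so the arrays disagreed in sign. Against Itga6 it was -1.25 and -1.02 with the brighter probe and -0.99 and 0.02 with the second. With the second probe of Itga6, the pairs in which the chain was lower on both arrays numbered 6 in place of 9.

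**Figure D3:**
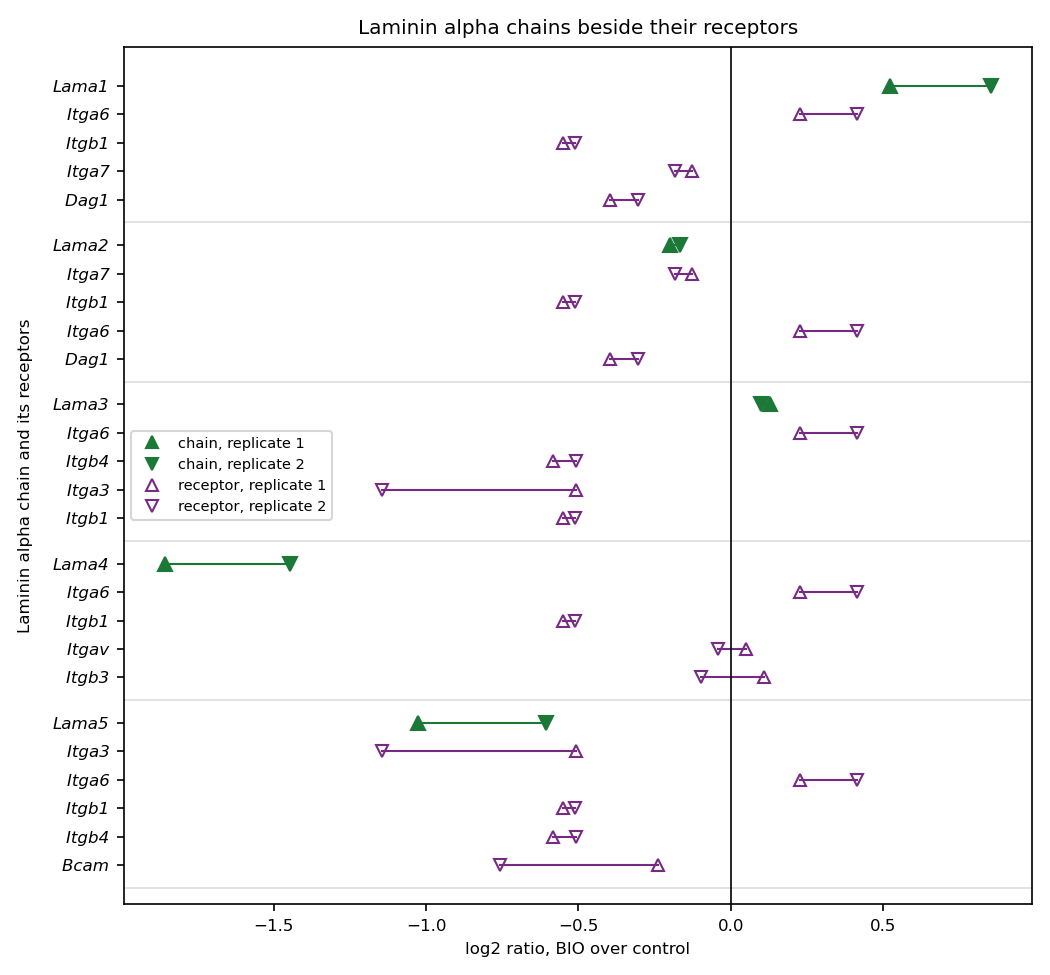
Log2 ratios of BIO over control for the 5 laminin alpha chain genes (filled green) and for the receptor genes paired with each (open purple), with 1 triangle per array joined by a line. Lama4 lies left of all 4 of its receptor genes on both arrays, and Lama1 lies right of all 4 of its own. On each array Lama4 had the lowest and Lama1 the highest log2 ratio of all 34 tested integrin and laminin genes.

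The collagen receptors pair beta1 with alpha1, alpha2, alpha10 or alpha11. Here 3 of 4 alpha chain genes fell and 1 rose. Itga1 had signals of 105 and 72.0 in replicate 1 and 126 and 91.8 in replicate 2, a log2 ratio of -0.48 ± 0.11 and an adjusted p of 0.0168. Its second probe gave -0.29 and was not called.

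Itga11, a chain of mesenchymal cells, had signals of 160.1 and 92.2 in replicate 1 and 184 and 157 in replicate 2. Its log2 ratios of -0.76 and -0.25 differed between the arrays, and the mean of -0.50 ± 0.14 had an adjusted p of 0.0351, which was lost on the processed signals, with an offset of 16 in the background correction, without the filter on dim probes and on the score table. Itga2, known from platelets and epithelia, was close to background. Its signals were 19.0 and 18.6 in control and 2.76 and 6.52 with BIO, and since it was not well above background with BIO on either array, its fall is a bound of at least 1.31-fold, with a limma adjusted p of 0.0107.

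Itga10, a collagen receptor chain known from cartilage, rose. Its signal went from 334 to 480.4 in replicate 1 and from 353 to 575 in replicate 2. Both BIO signals were above both control signals, and the log2 ratio was 0.49 ± 0.12 with an adjusted p of 0.0195. A second probe gave 0.55, but it shares 54 of its bases with the first and is no separate measurement. The first 30 bases of both show the shift.
Itga10 brighter probe: tcctggggactgtcatggtgagcaaatggt
Itga10 second probe: agtccctcctggggactgtcatggtgagca

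The receptors for fibronectin, nephronectin and other ligands with the RGD motif had 4 falls and 3 genes not called. Itga8, the alpha chain of the nephronectin receptor, went from a signal of 4789 to 2152 in replicate 1 and from 5726 to 2986 in replicate 2. The fall was close to equal on both arrays, at -1.12 and -1.02, and the mean of -1.07 ± 0.11 had an adjusted p of 0.000378. The gene of its ligand nephronectin, Npnt, had log2 ratios of -0.66 and -0.19 and was not called, at an adjusted p of 0.0546.

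Itga5 encodes the alpha chain of the classical fibronectin receptor. Its signals were 577 and 497 in replicate 1 and 715 and 356 in replicate 2, and its log2 ratios of -0.29 and -0.99 were as unequal as those of Itga3. The mean was -0.64 ± 0.16 with an adjusted p of 0.0250, and this call was lost on the score table, when dim probes were kept and with 16 as the offset. The gene of its ligand fibronectin, Fn1, was not called, at -0.08 and -0.16.

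Among the beta chains that pair with alphav, Itgb5 had signals of 6227 and 4452 in replicate 1 and 6499 and 4741 in replicate 2, and fell, with a log2 ratio of -0.49 ± 0.11 and an adjusted p of 0.0145. Itgb6, a chain of epithelial cells that with alphav activates TGF-beta, had signals of 158 and 86.4 in replicate 1 and 191 and 121 in replicate 2. It fell, with a log2 ratio of -0.72 ± 0.12 and an adjusted p of 0.00420, and a second probe fell too, at -0.71. The alphav gene itself, Itgav, had log2 ratios of 0.05 and -0.04 and its second probe -0.09 and -0.10. Itgb3 had 0.11 and -0.10, and Itgb8 had -0.14 and -0.08, and neither was called.

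Of the chains that bind VCAM1, MAdCAM1, osteopontin and tenascin-C, 2 of 3 fell. Itga4, known from leukocytes and from mesenchymal cells of the embryo, went from a signal of 2927 to 992 in replicate 1 and from 3306 to 1652 in replicate 2. It was lower with BIO by about 50% or more on both arrays, and its log2 ratio was -1.30 ± 0.15 with an adjusted p of 0.000692. A dimmer second probe, which crosses an intron at chr2:79153985-79155115 (mm9), also fell, at -0.76.

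Itga9 had signals of 6187 and 3264 in replicate 1 and 6984 and 4408 in replicate 2. It fell on both arrays, with a mean log2 ratio of -0.83 ± 0.12 and an adjusted p of 0.00190. Itgb7, a partner of alpha4 in lymphocytes, had signals of 34.4 and 49.6 in replicate 1 and 44.3 and 69.1 in replicate 2. The BIO signals were the higher ones on both arrays, but its log2 ratio of 0.32 was not called, at an adjusted p of 0.0723. On the processed signals it was called, at 0.55 and an adjusted p of 0.0363. Both cell surface ligands of alpha4 fell, Vcam1 with a log2 ratio of -1.58 ± 0.16 and Madcam1 with -1.84 ± 0.13.

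The integrins of leukocytes and platelets were near background for most probes. Itgb2, the beta chain shared by leukocyte integrins, had signals of 89.6 and 55.0 in replicate 1 and 124 and 65.1 in replicate 2, and fell, with a log2 ratio of -0.67 ± 0.11 and an adjusted p of 0.00363. Itgax, a chain of dendritic cells and macrophages, had signals of 27.9 and 10.5 in replicate 1 and 33.6 and 11.8 in replicate 2. It fell, with a log2 ratio of -0.59 ± 0.11 and an adjusted p of 0.00622, and with BIO it was well above background on 1 array only. Itga2b, the platelet chain, had log2 ratios of -0.03 and -0.18, and Itgal had -0.14 and -0.44, and neither was called. A second probe of Itgal went the other way, at 0.10 and 0.25, and was not called either, and its last probe was not tested. Itgad and Itgae were not tested.

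Itgam, a chain of macrophages and other myeloid cells, was measured by 3 probes, and the bright one of these is set apart by its sequence. The first 30 bases of all 3 are shown, with a run of CA in capitals.
Itgam brightest probe: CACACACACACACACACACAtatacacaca
Itgam second probe: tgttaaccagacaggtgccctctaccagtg
Itgam last probe: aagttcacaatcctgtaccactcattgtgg
The brightest probe, at chr7:135261755-135261814 (mm9), had signals of 7024 and 8246 in replicate 1 and 10988 and 9142 in replicate 2, while the control signals of the other 2 probes lay between 21.9 and 39.9. On the whole array 106 probes hold a run of at least 8 CA units, in either strand and either phase, and 88.7% of them had a mean control signal above 1000, against 32.8% of the other probes. Their median control signal was 8919 against 158. The median difference between the arrays was 0.31 on the log2 scale for these probes and 0.14 for the others. The brightest Itgam probe was not called, at 0.14 and -0.25, the second was not called, at 0.10 and 0.09, and the last of them fell, with a log2 ratio of -0.38 ± 0.11 and an adjusted p of 0.0416.

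**Figure D4:**
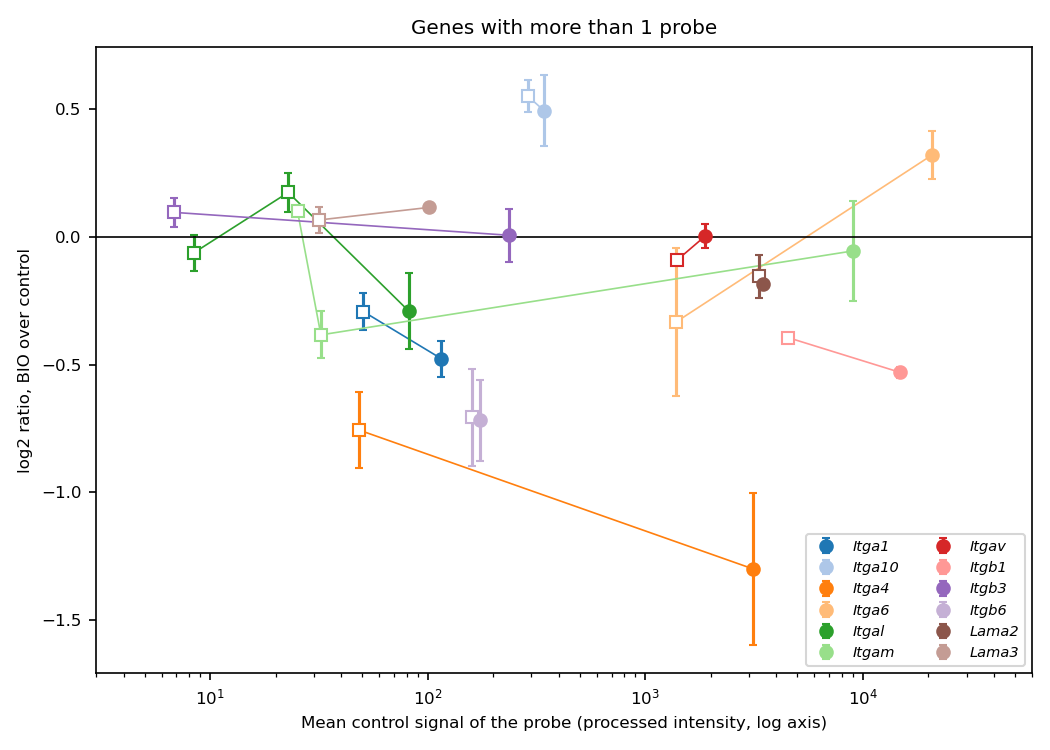
Log2 ratio of BIO over control (vertical axis) against the mean control signal on a log axis (horizontal axis) for every probe of the 12 genes with more than 1 probe. Filled circles are the brightest probe and open squares the others, joined per gene, and bars run from one array to the other. The probes of Itgb1, Itgb6 and Itga4 lie below 0 together, while those of Itga6, Itgal, Itgam and Itgav lie on both sides of 0.

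In the wider system, falls outnumbered rises as well. In lists of genes of basement membranes, matrix ligands and adhesion complexes, 38 of 67 tested genes were called, 2 as risen and 36 as fallen. The median log2 ratio was -0.36. The called share was 56.7%, against 23.9% of all tested genes. For the counts by list below, the shares over all tested genes are 14.8% fallen and 9.13% risen. The number called was 23 on the processed signals, with 1 risen and 22 fallen, and 20 both under median centering and on the score table, each with 1 risen and 19 fallen. Of these calls, 23 on the processed signals, 19 under median centering and only 9 on the score table were also calls of the main fit. In this order the called shares were 34.3%, 29.9% and 29.9%, against 19.1%, 12.8% and 15.1% of all genes. Of the other basement membrane components 6 of 12 tested genes fell and 0 rose. They were the collagen IV chain genes Col4a1 and Col4a2, with log2 ratios of -1.25 ± 0.11 and -0.82 ± 0.11, Col15a1 with -1.13 ± 0.11, Col18a1 with -0.83 ± 0.11, Sparc with -0.72 ± 0.11 and the nidogen gene Nid1 with -0.48 ± 0.14. Hspg2 and Agrn, which encode the proteoglycans perlecan and agrin, were not called, at -0.33 and -0.34.

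Among 5 laminin receptors that are no integrins, the syndecan gene Sdc1 rose, with a log2 ratio of 0.52 ± 0.12, while Sdc4 and Bcam fell, with -0.54 ± 0.11 and -0.50 ± 0.14. Of 18 tested genes of other integrin ligands 10 fell and 0 rose. The largest falls were those of Madcam1, of the matricellular protein gene Ccn2 at -1.80 ± 0.15, of Vcam1, of the periostin gene Postn at -1.31 ± 0.14, of Fras1, whose product lies in the epithelial basement membrane, at -1.27 ± 0.14, and of the thrombospondin gene Thbs1 at -1.25 ± 0.11. Of 6 hemidesmosome and tetraspanin genes the tetraspanin genes Cd9, Cd81 and Cd151 fell, with log2 ratios of -0.73 ± 0.11, -0.43 ± 0.11 and -0.42 ± 0.11, and the plakin gene Dst rose, with 0.46 ± 0.11.

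Inside the cell, 15 of 26 tested genes of integrin activators, adaptors and focal adhesion kinases fell and 0 rose. The vinculin gene Vcl had a log2 ratio of -0.85 ± 0.11 and the gene of integrin-linked kinase, Ilk, one of -0.71 ± 0.14. Lims2, Rsu1, Tns1 and Pxn, which encode further proteins of focal adhesions, fell, with -0.69 ± 0.11, -0.69 ± 0.11, -0.66 ± 0.11 and -0.52 ± 0.11. The gene of focal adhesion kinase, Ptk2, was not called, at -0.22 and -0.18.

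Markers of cell types in the explants changed too. In whole ureters a smaller number of cells of a type and less RNA per cell cannot be told apart. All 8 endothelial markers fell, with log2 ratios from -2.63 for Kdr to -1.22 for Tie1, and their summed signal went from 28597 to 5317 in replicate 1 and from 34429.5 to 9919 in replicate 2. All 8 were well above background in control on both arrays. Lama4, whose laminin is known from vessels, fell in the same explants, and the part of the endothelial markers in this result was not tested.

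Of 7 tested macrophage markers 4 fell and 0 rose. The fallen ones were Cx3cr1 at -1.75, Ptprc at -0.78, Csf1r at -0.64 and C1qa at -0.44. C1qb, at -0.46 and -0.18 on the arrays, Adgre1, at -0.35 and 0.28, and Mrc1, at 0.04 and 0.13, were not called. The summed signal of the macrophage list went from 4814 to 3065 and from 5715 to 4632. Itgb2 and Itgax fell beside the 4 fallen markers, and the part of the macrophage markers was not tested. Of 7 tested platelet markers Pf4 and Ppbp rose, by 2.03 ± 0.14 and 1.02 ± 0.13, while the other 5 and the platelet integrin gene Itga2b were not called. The summed signal of the platelet list went from 722 to 2298 and from 909 to 3809.8, most of which was Pf4, at 572 and 2104 in replicate 1 and 711 and 3570.5 in replicate 2.

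Of 8 ureteric epithelial markers 4 fell, which were Krt19 at -1.24, Cdh1 at -1.04, Krt8 at -0.91 and Krt18 at -0.89, and 0 rose. Epcam, Cldn4, Grhl2 and Elf3 were not called, at 0.02, -0.12, -0.16 and 0.16. Of 8 mesenchymal markers 6 fell, led by Pdgfrb at -2.17, Osr1 at -0.94 and Col3a1 at -0.91. Tbx18 was not called at -0.22, nor was Foxf1, at -0.80 and 0.48 on the arrays. Of 7 smooth muscle markers 5 fell, led by Acta2 at -1.63. The summed signal of the epithelial list went from 76651 to 42664 and from 77961 to 50221, that of the mesenchymal list from 232954 to 143358 and from 254590 to 159918, and that of the smooth muscle list from 15281 to 7862 and from 16087 to 8476. Most of the epithelial sum was Krt8 and Krt18, with control signals of 28018 and 28778 in replicate 1. Most of the mesenchymal sum was Col1a1, Col3a1 and Vim, with 63032, 70916 and 51441 in the same channel. The epithelial integrin genes Itgb4 and Itgb6 and the mesenchymal genes Itga4, also known from leukocytes, Itga8 and Itga11 fell beside these lists. Lama1, whose laminin is known from early embryonic epithelia, rose, and Itga6, the gene of the beta4 partner, was not called with either probe. The part of these lists was not tested. Erythroid markers had 3 falls in 7 and markers of Schwann cell precursors and neurons 2 falls in 6, with 0 rises in either. The largest of these falls was that of Hba-a1 at -0.65.

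**Figure D5:**
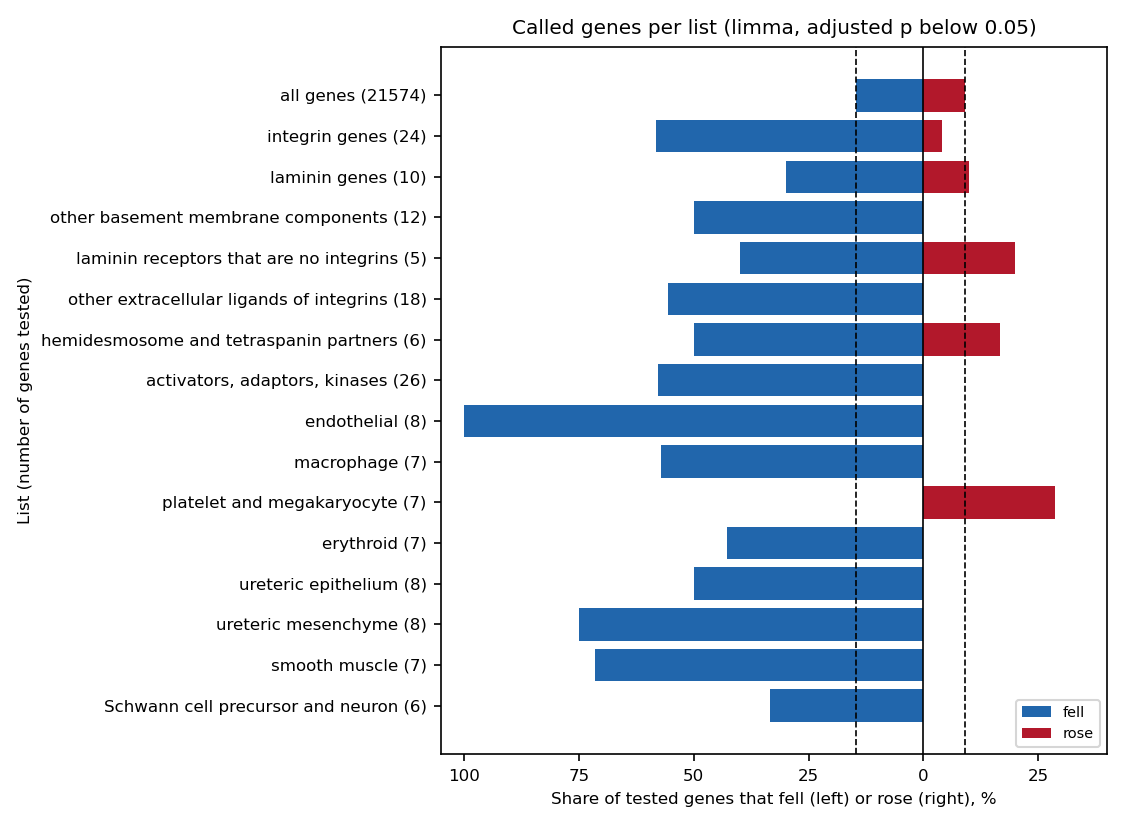
Share of the tested genes of each list that fell (blue, to the left) or rose (red, to the right) with BIO, in percent, with the number tested in parentheses. Dashed lines mark the shares over all genes, 14.8% fallen and 9.13% risen. Integrin genes had 14 falls in 24 and laminin genes 3 in 10, and all 8 endothelial markers fell.

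BIO inhibits GSK3 and activates canonical WNT signaling, in which beta-catenin works with TCF and LEF factors. Whether the changes of these genes ran through those factors was not tested. The 250 bases before the start of each gene were searched on both strands for the TCF and LEF letters CTTTGAA. Their variant CTTTGAT and the letters CTTTGTA and CTTTGTT were searched in the same way. RefSeq promoters of GRCm38.p6 were at hand for 23 of the 36 genes, and 2 of the 23 held a match, which is 8.70%, against 16.8% of 27025 genes with a promoter in the same table. The 2 genes were Itga10, which rose, and Itga1, which fell. Their upstream stretches are given with the match in capitals, at chr3:96645334-96645583 on the plus strand for Itga10 and at chr13:115101965-115102214 on the minus strand for Itga1 (GRCm38.p6).
Itga10: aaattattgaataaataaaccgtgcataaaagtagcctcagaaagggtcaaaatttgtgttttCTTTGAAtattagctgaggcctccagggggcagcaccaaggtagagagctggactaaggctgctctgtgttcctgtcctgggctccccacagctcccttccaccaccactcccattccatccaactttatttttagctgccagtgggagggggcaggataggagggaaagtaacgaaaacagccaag
Itga1: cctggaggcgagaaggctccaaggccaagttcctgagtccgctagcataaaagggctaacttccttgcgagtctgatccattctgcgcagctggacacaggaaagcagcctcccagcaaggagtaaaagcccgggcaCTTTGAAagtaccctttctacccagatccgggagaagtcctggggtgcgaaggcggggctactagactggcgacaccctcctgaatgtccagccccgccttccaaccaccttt
The match begins 187 bases before the start of Itga10 and 113 bases before that of Itga1. A match of letters does not show binding, and Lama4 and Lama1 had no promoter in the table.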

How the data were processed

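RNA of BIO-treated and control ureter explants was compared on 2 Agilent 2-color arrays with exchanged dyes, each taken as 1 replicate, since the labels number the RNAs and the methods describe separate pools. Per the file headers, the authors quantified the scans with Agilent Feature Extraction 10.7.3.1. The deposited tables hold mean spot intensities, local background intensities, processed signal intensities (background-subtracted and dye-normalized) and flags, with 4 spots per probe. The authors also deposited 1 score per probe and array, of unstated making and centering (column median 1 on both arrays), whose log2 size correlated with the processed log2 ratio at 0.917 and 0.941 over probes.

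Intensities were corrected by normexp with offset 50, which pulls dim ratios toward 0, and loess-normalized within each array (limma 3.58.1, R 4.3.3). Control and outlier spots (3.49% and 3.16%) were left out, spots of a probe averaged, and probes tested when well above background in the control or the BIO channel of both arrays (in over a share of 0.5 of their spots). Such spots made up 70.1% to 80.9% of a channel. Ratios were turned to BIO over control and tested two-sided against 0 by limma's lmFit and eBayes, and p-values were adjusted by Benjamini-Hochberg over all tested probes. With 2 arrays a dye term leaves no residual degree of freedom, and the number of arrays limits precision (median SE 0.111). Both arrays lay on 1 slide. The fold rule used processed signals with a floor of 15, median-centered. Probes were named through RefSeq genes of GRCm38.p6, and coordinates are mm9. Every member was to be named, with full statistics for those called, and of each other list up to 6 called genes by size of the ratio. Some genes are not reported here and were left out of the counts over lists, though not of the counts over all genes. Members, lists and tests were chosen with earlier results of these data known. The fit was tested on simulated data.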

Additional observations from a re-analysis of the deposited data

How the results depend on the processing

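With 2 arrays the precision is set by their number, and dim probes, such as those of Itga2 and Itgax and the dimmer probes of Itgam, lie close to background. Under median centering 12 integrin and laminin genes were called, 1 risen and 11 fallen, and 2766 of all genes. On the deposited score table the called genes of this kind numbered 4, 0 risen and 4 fallen, and 3248 of all genes, with 1929 risen and 1319 fallen in place of 1970 and 3184. Of these 3248 genes, 1038 were also called in the main fit. The cause of these differences was not tested. The other 5 alternatives (processed signals, an offset of 16, no filter on dim probes, outlier spots kept, the mean of all kept probes) gave 17 to 19. Of the 19 called genes, 10 kept their call in every alternative but the score table. The called genes of the wider adhesion system, 38 in the main fit, numbered 23 on the processed signals and 20 under median centering. They also numbered 20 on the score table, of which 9 were calls of the main fit. Over all genes 19.1%, 12.8% and 15.1% were called in these settings. The called cell type markers, 34 in the main fit, numbered 5 on the score table, which is 8.62% of those tested. The median log2 ratio of the integrin and laminin genes was -0.43 on the processed signals, -0.41 under median centering, -0.41 with an offset of 16, -0.29 without the filter, where 36 genes entered, -0.31 on the score table and -0.34 over all kept probes. It was between -0.36 and -0.33 on single arrays. The intensity and fold-change rule gave 2 genes, 7 at 1.5-fold, 0 at 3-fold, and 3 to 4 on a single array. The 9 pairs in which a laminin alpha chain was lower than its receptor on both arrays became 7 to 9 over the other settings and 9 to 12 on single arrays. Representing Itga6 and Itgam by another probe, an alternative chosen after seeing the data, left 19 calls and gave 6 pairs. No called gene changed direction in any alternative, though Itga2 is listed at no change in the score table. A single array leaves no residual degree of freedom, so no calls were counted without a replicate. No replicate block was added, because the ratios tested are already paired, each taken within 1 array between its control and its BIO sample.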
